A study of Homo sapiens with 30 samples.

Results

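TMPRSS2 and 7 transcription factors of the ETS family, ERG, ETV1, ETV4, ETV5, ELK4, ELF3 and EHF, were followed through all 10 conditions of the series. The 8 genes were chosen by symbol, as the androgen-regulated gene that fuses to ETS factors in prostate cancer, the ETS factors that such fusions involve, and 3 further family members. All 8 were found among the 23710 gene symbols with a count in each library and among the transcripts with an FPKM value (fragments per kilobase of transcript, scaled to the mapped fragments of the library).

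RNA-seq of 30 libraries was available, 3 for each condition. Castration-resistant V16D cells, derived from the LNCaP prostate cancer line, were grown in full serum and exposed for 24 h to vehicle or to 10 μM enzalutamide, an antiandrogen. MR49F cells, a single line that was established from LNCaP xenografts under enzalutamide and is resistant to the drug, were treated in full serum in the same way. MR49F cells were also kept for 72 h in charcoal-stripped serum, which is depleted of androgens, and then given vehicle, 10 μM enzalutamide, 1 nM dihydrotestosterone (DHT) or 500 nM JQ-1 (an inhibitor of BET bromodomain proteins), or enzalutamide or DHT combined with JQ-1, again for 24 h. A figure legend of the paper points instead to 3 days for the JQ-1 RNA-seq, so the time of those groups is uncertain. The paper states that MR49F cells were maintained with 10 μM enzalutamide. All MR49F cells had been taken off enzalutamide before treatment, although the paper's text describes no such step. V16D cells were not measured in stripped serum. The study's methods call the replicates biological and combined wells for each. The labels describe plating in triplicate, so whether replicates are separate cultures is not clear. A p-value here reflects the spread between such samples alone, and that spread may be technical.

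TMPRSS2 encodes a transmembrane serine protease of the apical surface of luminal prostate cells, and its transcription is induced by androgens. In many prostate tumours a rearrangement joins its promoter and first exons to ERG, or less often to ETV1, ETV4 or ETV5, and brings the ETS gene under androgen control. ETS factors bind DNA through a shared winged helix-turn-helix domain that recognises a GGAA core. ELK4 is a ternary complex factor that works with serum response factor, and ELF3 and EHF are ETS factors of epithelial cells.

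Between 13170504 and 21154962 reads were counted on genes in the 12 full serum libraries and between 982130 and 1813262 in the 18 stripped serum libraries. The share of reads assigned to genes was 5.13% to 7.66% in stripped serum and 73.0% to 77.8% in full serum. For that reason differences in stripped serum were tested on FPKM with limma, and differences in full serum on counts with edgeR, each over all genes with Benjamini-Hochberg adjustment and a threshold of 0.05. A limma difference is on the log2(FPKM + 1) scale, which understates the change of genes with low FPKM. Epithelial and luminal prostate markers were present in every condition, with means of 47.2 to 85.7 FPKM for EPCAM, 114 to 523 FPKM for KRT8, 120 to 501 FPKM for KRT18 and 7.01 to 1258 FPKM for KLK3. The 3 basal and 3 endothelial markers all averaged under 1 FPKM, as did 4 of 5 stromal markers, all but COL1A1 (1.11 FPKM), and 3 of 4 leukocyte markers, all but CD68 (3.01 FPKM). Of 3 neuroendocrine markers, CHGA and INSM1 averaged under 1 FPKM and SYP 3.33 FPKM, and the sum of the 3 ran from 0.610 to 1.47 FPKM over the full serum libraries and from 1.12 to 9.72 FPKM over the stripped serum libraries. In bulk RNA, fewer cells of a type and less RNA per cell cannot be told apart, and this holds for every level below.

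The members lie on different chromosomes except for TMPRSS2 with ERG and ELK4 with ELF3. In GRCh37, the build of the authors' alignment, GENCODE places TMPRSS2 on the minus strand at chr21:42836227-42903043 and ERG on the same strand at chr21:39751949-40033704. ELK4 spans chr1:205566684-205601139 on the minus strand and ELF3 chr1:201977073-201986311 on the plus strand. EHF spans chr11:34642640-34684835 on the plus strand, ETV5 chr3:185764103-185828107, ETV4 chr17:41605212-41656988 and ETV1 chr7:13930854-14031050, the last 3 on the minus strand. Among genes in the count tables, MX1 shares 562 of the 6589 exonic bases of TMPRSS2 on the opposite strand, and DHX8 shares 68 of the 3515 of ETV4.

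ELK4 and ELF3, whose changes had opposite signs with enzalutamide in V16D cells and with enzalutamide or DHT in stripped serum, are shown with the 250 bases upstream of their canonical transcript start in GENCODE, read from the GRCh37 genome on the strand of the gene. They lie at chr1:205601140-205601389 for ELK4 and chr1:201979465-201979714 for ELF3. Capitals mark CCGGAA, or TTCCGG on the other strand, a longer form of the GGAA core. Both windows also hold GGAA copies outside this form, which are not marked.
ELK4: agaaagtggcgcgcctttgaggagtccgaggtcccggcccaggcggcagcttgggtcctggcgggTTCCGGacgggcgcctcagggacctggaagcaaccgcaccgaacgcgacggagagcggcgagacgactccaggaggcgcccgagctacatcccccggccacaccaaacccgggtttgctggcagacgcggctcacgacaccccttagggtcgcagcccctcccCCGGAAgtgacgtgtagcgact
ELF3: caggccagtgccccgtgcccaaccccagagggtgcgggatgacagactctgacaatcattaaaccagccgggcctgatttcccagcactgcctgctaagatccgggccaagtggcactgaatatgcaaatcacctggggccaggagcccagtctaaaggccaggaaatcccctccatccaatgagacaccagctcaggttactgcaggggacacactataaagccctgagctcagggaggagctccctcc

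The ELK4 window held 2 copies of this longer form, whose first bases lay 185 and 22 bases before the start. The ELF3 window held the longer form nowhere, though it held the GGAA core. TMPRSS2 and EHF changed in the direction of ELK4 in those comparisons, and their windows also held the longer form nowhere. Any link between this form and the direction of change was not tested. Of the windows of the same length before 19853 protein-coding genes, 19.4% held the longer form. The window of ELK4 was 69.2% G or C and that of ELF3 58.4%.

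The abundant members differed in how far they ranged. The order below uses FPKM with no scaling between libraries. The FPKM total of a library ran from 384910, with DHT and JQ-1 in stripped serum, to 858576, in MR49F with enzalutamide in full serum. Whether the order across lines and sera holds after scaling was not tested. TMPRSS2 had its highest mean with DHT in stripped serum (170 FPKM) and its lowest with JQ-1 in stripped serum (8.28 FPKM), a 20.5-fold range, and the replicate ranges of neighbouring conditions in this order never overlapped. EHF ranged 9.70-fold, from 184 FPKM in V16D vehicle to 18.9 FPKM with JQ-1, and its only overlapping neighbours were V16D with enzalutamide and MR49F in stripped serum with enzalutamide. ELK4 ranged 4.88-fold, from 45.4 FPKM with DHT and JQ-1 to 9.30 FPKM with JQ-1. Its replicate ranges overlapped between DHT with JQ-1 and DHT, between enzalutamide with JQ-1 and MR49F in full serum with enzalutamide, and between MR49F in full serum with enzalutamide and with vehicle. ELF3 ran the other way, from 14.6 FPKM with JQ-1 to 3.97 FPKM in V16D vehicle, a 3.69-fold range. Its overlapping neighbours were MR49F and V16D with enzalutamide in full serum, V16D in full serum and MR49F in stripped serum with enzalutamide, and DHT with JQ-1 and DHT.

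**Figure D1:**
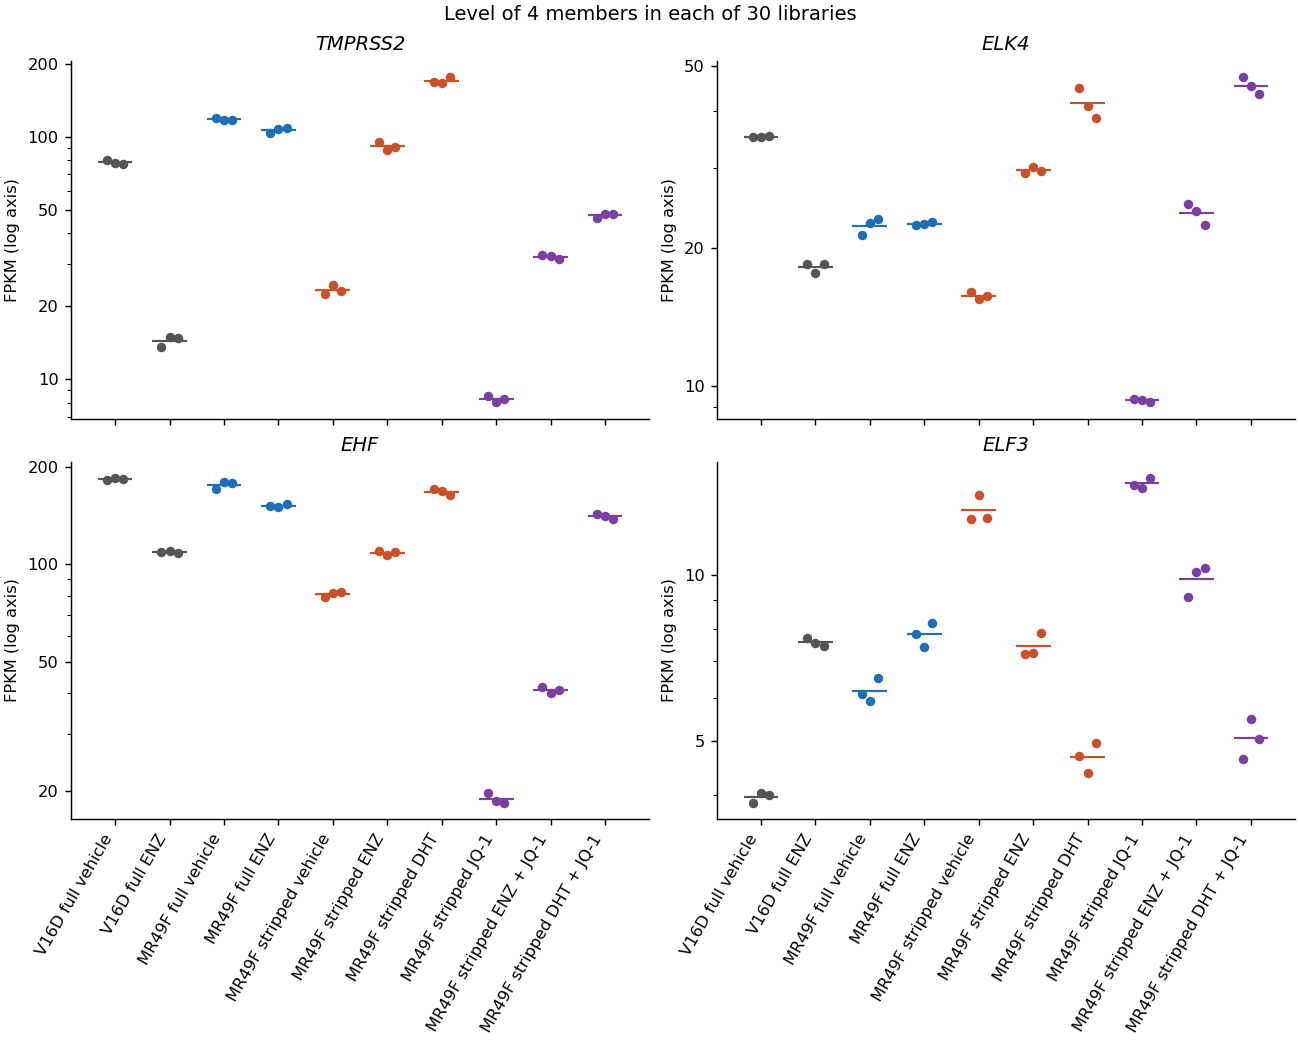
Level of TMPRSS2, ELK4, EHF and ELF3 in each of the 30 libraries in FPKM on a log axis, by condition, with a bar at the mean of the 3 replicates. TMPRSS2 runs from a mean of 8.28 FPKM with JQ-1 to 170 FPKM with DHT, while ELF3 is highest with JQ-1 (14.6 FPKM) and lowest in V16D vehicle (3.97 FPKM).

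A single RefSeq transcript carried most of each abundant member. NM_005656 made up 82.8% to 96.9% of the TMPRSS2 FPKM over the condition means, and NM_001135099 the remaining 3.12% to 17.2%. NM_001973 made up 96.0% to 99.0% of ELK4, NM_004433 at least 92.2% of ELF3 and NM_012153 between 76.1% and 86.6% of EHF.

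The first question of the study was what enzalutamide does in the parental and in the resistant line in full serum. In V16D cells it lowered TMPRSS2, ELK4 and EHF and raised ELF3. TMPRSS2 was at 80.1, 78.3 and 77.4 FPKM with vehicle and at 13.5, 14.9 and 14.8 FPKM with enzalutamide. The groups were far apart, with means that differed 5.46-fold, and on counts TMPRSS2 fell by 2.48 ± 0.032 (SE) on the log2 scale (edgeR, past the threshold). ELK4 was at 35.0, 35.1 and 35.2 FPKM with vehicle and at 18.4, 17.7 and 18.4 FPKM with enzalutamide, a log2 change of -0.98 ± 0.025 (edgeR, adjusted p = 6.43e-191). EHF was at 182, 185 and 183 FPKM with vehicle and at 109, 110 and 108 FPKM with enzalutamide, a log2 change of -0.78 ± 0.022 (edgeR, adjusted p = 6.92e-164). For both genes every enzalutamide library lay below every vehicle library. ELF3 went the opposite way, from 3.87, 4.02 and 4.002 FPKM to 7.70, 7.53 and 7.44 FPKM, and its log2 change of 0.91 ± 0.065 passed the test (edgeR, adjusted p = 5.16e-38). Thus 1 member rose and 3 fell of the 5 that passed the filter on low counts, where 37.5% of all genes tested were called, 18.2% higher and 19.3% lower.

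In MR49F cells in full serum the same drug moved the members little. TMPRSS2 was at 119, 117 and 117 FPKM with vehicle and at 104, 108 and 109 FPKM with enzalutamide. All enzalutamide values lay below all vehicle values, and the log2 change on counts was -0.19 ± 0.044 (edgeR, adjusted p = 0.0255). This call was fragile, since limma on FPKM gave -0.14 (adjusted p = 0.102) and leaving out enzalutamide replicate 1, 2 or 3 or vehicle replicate 2 gave edgeR adjusted p-values of 0.143, 0.118, 0.121 and 0.0635. ELK4 was at 21.4, 22.7 and 23.1 FPKM with vehicle and at 22.4, 22.6 and 22.8 FPKM with enzalutamide, with overlapping groups and a log2 difference of -0.0040, whose 95% interval ran from -0.098 to 0.090. EHF fell from 171, 179 and 178 FPKM to 151, 151 and 153 FPKM without overlap, a log2 change of -0.26 ± 0.039 (edgeR, adjusted p = 0.00236). ELF3 rose from 6.09, 5.91 and 6.51 FPKM to 7.82, 7.41 and 8.19 FPKM, a log2 change of 0.31 ± 0.065 (edgeR, adjusted p = 0.0164). The ELF3 call was lost without enzalutamide replicate 1, enzalutamide replicate 3 or vehicle replicate 2, with edgeR adjusted p-values of 0.0822, 0.121 and 0.0765. Of 6 members tested 1 rose and 2 fell, where 8.48% of all genes were called, 3.86% higher and 4.62% lower.

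The difference between the lines was tested directly with the interaction of line and drug over the 12 full serum libraries. The enzalutamide effect was higher in MR49F than in V16D by 2.28 ± 0.059 (log2) for TMPRSS2 (edgeR, adjusted p = 4.40e-16). It was higher by 0.96 ± 0.048 for ELK4 (edgeR, adjusted p = 1.44e-11) and by 0.52 ± 0.042 for EHF (edgeR, adjusted p = 3.30e-08). For ELF3 it was lower, with a term of -0.61 ± 0.083 (edgeR, adjusted p = 4.37e-05). So 3 of 6 members tested had a positive and 1 a negative interaction, where 6.95% of all genes were called, 4.19% positive and 2.76% negative. The vehicle libraries enter this comparison and the comparisons above.

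With vehicle alone the lines already differed. Mean TMPRSS2 was 118 FPKM in MR49F and 78.6 FPKM in V16D, a log2 difference of 0.59 ± 0.046 (edgeR, adjusted p = 5.14e-07). ELK4 was lower in MR49F, at 22.4 against 35.1 FPKM, with a log2 difference of -0.67 ± 0.044 (edgeR, adjusted p = 1.16e-07), and ELF3 was higher, at 6.17 against 3.97 FPKM, by 0.64 ± 0.072 (edgeR, adjusted p = 1.04e-05). EHF, at 176 and 184 FPKM, did not pass the test on counts (log2 difference -0.060, 95% interval -0.15 to 0.029), although its FPKM values did not overlap between the lines. ETV5 had 12, 17 and 14 counts in MR49F and 6, 11 and 5 in V16D, and its log2 difference of 1.10 ± 0.33 passed in edgeR (adjusted p = 0.0125). It missed the threshold with DESeq2 (adjusted p = 0.0855) and in edgeR without V16D vehicle replicate 3 (adjusted p = 0.0553). Of 5 members tested 3 were higher and 1 lower in MR49F, where 63.7% of all genes were called, 31.9% higher and 31.8% lower.

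A central question of the study was whether enzalutamide acts as an agonist when androgens are depleted. In stripped serum MR49F cells had 22.4, 24.4 and 23.1 FPKM of TMPRSS2 with vehicle and 95.2, 88.2 and 91.1 FPKM with enzalutamide. The means differed 3.93-fold, every treated library was above every vehicle library, and TMPRSS2 rose by 1.93 ± 0.052 on the log2(FPKM + 1) scale (limma, adjusted p = 1.43e-07). ELK4 rose from 16.03, 15.5 and 15.7 FPKM to 29.3, 30.1 and 29.5 FPKM, a change of 0.87 ± 0.042 (limma, adjusted p = 3.99e-06). EHF rose from 79.0, 81.8 and 82.1 FPKM to 110, 107 and 109 FPKM, a change of 0.42 ± 0.043 (limma, adjusted p = 1.82e-04). ELF3 fell from 12.6, 13.96 and 12.7 FPKM to 7.20, 7.22 and 7.85 FPKM, a change of -0.74 ± 0.057 (limma, adjusted p = 4.00e-05). None of these pairs of groups overlapped. Of the 4 members tested 3 rose and 1 fell, where 38.4% of all genes were called, 19.1% higher and 19.3% lower. The two-group test with equal variances that the study used, on variance-stabilized counts, kept TMPRSS2 (1.86) and called 149 genes in all. It lost the calls of ELK4 (0.75, adjusted p = 0.111), EHF (0.51, adjusted p = 0.0866) and ELF3 (-0.55, adjusted p = 0.130), with the same directions.

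DHT moved the same 4 members further in the same directions. TMPRSS2 reached 168, 166 and 176 FPKM, 7.30-fold the vehicle mean, a change of 2.82 ± 0.048 (limma, adjusted p = 4.07e-09). ELK4 reached 44.9, 40.9 and 38.6 FPKM, a change of 1.34 ± 0.059 (limma, adjusted p = 4.14e-07), and EHF reached 171, 168 and 164 FPKM, a change of 1.04 ± 0.041 (limma, adjusted p = 2.30e-07). ELF3 fell to 4.70, 4.38 and 4.96 FPKM, a change of -1.31 ± 0.058 (limma, adjusted p = 4.13e-07). No DHT library overlapped the vehicle libraries for any of these genes. Of the 4 members tested 3 rose and 1 fell, and over all genes 71.6% were called, 28.6% higher and 43% lower. With FPKM rescaled by median ratios the share of calls that were higher moved from 40.0% to 55.4% and the median of all genes from -0.083 to 0.039, a shift of 0.12, and the 4 members kept their directions.

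Set against enzalutamide directly, DHT gave more TMPRSS2 by 0.89 ± 0.049 (limma, adjusted p = 1.94e-06), more ELK4 by 0.47 ± 0.060 (limma, adjusted p = 2.47e-04) and more EHF by 0.62 ± 0.043 (limma, adjusted p = 7.10e-06). It gave less ELF3, a difference of -0.57 ± 0.056 (limma, adjusted p = 5.30e-05). All 4 tested members were called, 3 higher and 1 lower with DHT, although the two-group test with equal variances lost ELK4 (0.41, adjusted p = 0.200) and ELF3 (-0.48, adjusted p = 0.217). Over all genes 56.7% were called, 20.3% higher and 36.4% lower. Rescaled FPKM moved the share of calls that were higher from 35.9% to 55.1%. The 2 ligands shared their vehicle libraries in the comparisons above.

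The interaction of serum and enzalutamide in MR49F was larger than the spread for all 4 abundant members. The drug effect in stripped serum exceeded that in full serum by 2.07 ± 0.060 for TMPRSS2 (limma, adjusted p = 4.64e-09), by 0.86 ± 0.052 for ELK4 (limma, adjusted p = 9.83e-07) and by 0.63 ± 0.048 for EHF (limma, adjusted p = 4.90e-06). For ELF3 it was lower, with a term of -1.04 ± 0.078 (limma, adjusted p = 4.75e-06). Of all genes 34% were called, 14.8% positive and 19.2% negative, and of the 4 members tested 3 were positive and 1 negative. Rescaling moved the positive share of calls from 43.5% to 56.4%. The share of reads counted on genes also differed between the sera, and its part in this result was not tested.

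**Figure D2:**
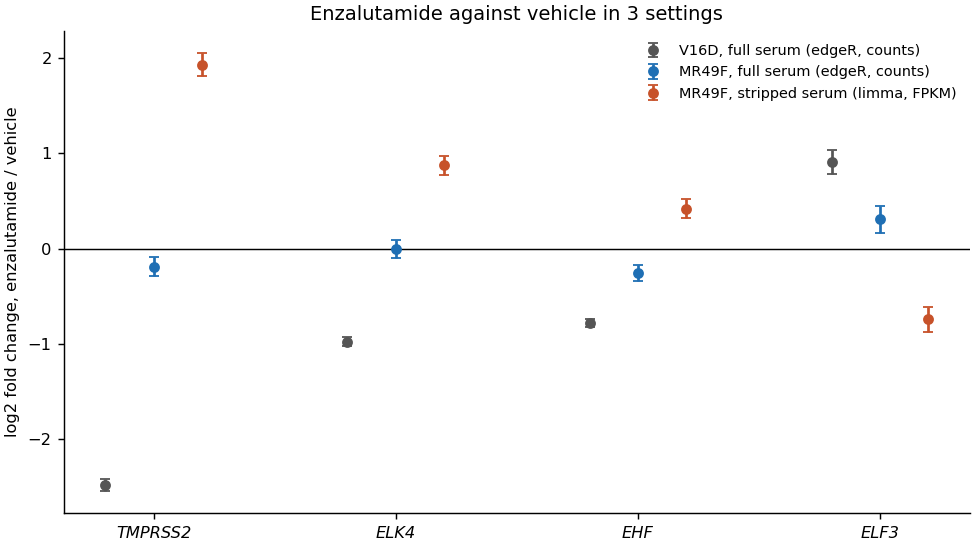
Log2 fold change of enzalutamide against vehicle for TMPRSS2, ELK4, EHF and ELF3 with 95% intervals, in V16D and MR49F in full serum (edgeR on counts) and in MR49F in stripped serum (limma on log2(FPKM + 1)), n = 3 libraries a group. TMPRSS2 goes from -2.48 in V16D through -0.19 in MR49F in full serum to 1.93 in stripped serum, and ELF3 from 0.91 to -0.74.

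JQ-1 was added to ask whether BET inhibition blocks the response to either ligand. Alone, it lowered TMPRSS2 from the vehicle values to 8.55, 8.02 and 8.26 FPKM, a 2.81-fold difference of means and a change of -1.39 ± 0.045 (limma, adjusted p = 2.01e-07). EHF fell furthest, to 19.8, 18.6 and 18.4 FPKM, 4.28-fold below vehicle, a change of -2.04 ± 0.042 (limma, adjusted p = 3.40e-08). ELK4 fell to 9.35, 9.34 and 9.21 FPKM, a change of -0.70 ± 0.035 (limma, adjusted p = 1.33e-06). For these 3 genes no JQ-1 library reached the vehicle range. On counts the ELK4 change was smaller (edgeR, -0.43, adjusted p = 0.00193), and in the two-group test with equal variances its call was lost (-0.38, adjusted p = 0.0573) and TMPRSS2 fell by 0.91. ELF3 was at 14.6, 14.4 and 14.99 FPKM, higher by 0.15 ± 0.048 (limma, adjusted p = 0.0210). That call was lost on counts (edgeR, 0.25, adjusted p = 0.137) and without vehicle replicate 1, vehicle replicate 3 or JQ-1 replicate 3 (limma adjusted p-values of 0.0668, 0.0635 and 0.0650). Of these 4 members 1 was higher and 3 lower, where 74.7% of all genes were called, 32.4% higher and 42.2% lower. The neuroendocrine marker SYP had means of 1.33 to 1.63 FPKM in the 3 stripped serum conditions without JQ-1 and of 7.29 to 9.14 FPKM in the 3 with it, and its part in these results was not tested. The other markers of that list were near 0, since CHGA averaged at most 0.0858 FPKM and INSM1 at most 0.00622 FPKM in any of the 6.

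Added to enzalutamide, JQ-1 lowered TMPRSS2 to 32.5, 32.2 and 31.3 FPKM, a change of -1.49 ± 0.047 (limma, adjusted p = 1.01e-07). EHF fell to 41.9, 40.0 and 40.9 FPKM, a change of -1.39 ± 0.042 (limma, adjusted p = 9.05e-08). Both stayed below every library with enzalutamide alone. ELK4 was at 24.95, 24.1 and 22.5 FPKM, a change of -0.30 ± 0.050 (limma, adjusted p = 6.56e-04), and ELF3 at 9.12, 10.1 and 10.3 FPKM, higher by 0.36 ± 0.059 (limma, adjusted p = 5.83e-04). Neither call held in the two-group test with equal variances, with -0.16 (adjusted p = 0.501) for ELK4 and 0.29 (adjusted p = 0.225) for ELF3, or on counts, where edgeR gave -0.20 (adjusted p = 0.153) for ELK4 and 0.40 (adjusted p = 0.0730) for ELF3. Of these 4 members 1 was higher and 3 lower, where 75.4% of all genes were called, 31.1% higher and 44.3% lower.

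Added to DHT, JQ-1 separated the members. TMPRSS2 fell to 46.3, 48.0 and 47.8 FPKM, 3.59-fold below DHT alone, a change of -1.82 ± 0.042 (limma, adjusted p = 3.46e-08). EHF was at 143, 141 and 138 FPKM, below the DHT range, a change of -0.25 ± 0.040 (limma, adjusted p = 5.43e-04) that was lost on counts (edgeR, -0.058, adjusted p = 0.514) and in the two-group test with equal variances (-0.053, adjusted p = 0.400). ELK4 was at 47.3, 45.2 and 43.5 FPKM, and its ranges with and without JQ-1 overlapped. The ELK4 difference was 0.13 (95% interval -0.019 to 0.27) by limma (adjusted p = 0.0954), and it passed the threshold on counts (edgeR, 0.30, adjusted p = 0.0125), with rescaled FPKM (limma, 0.20, adjusted p = 0.0245) and without DHT replicate 1 (limma, 0.19, adjusted p = 0.0184). ELF3, at 4.64, 5.49 and 5.05 FPKM, overlapped the DHT libraries (difference 0.093, 95% interval -0.056 to 0.24), and passed the threshold with rescaled FPKM (limma, 0.15, adjusted p = 0.0361). No member of the 4 tested was higher and 2 were lower, where 78.8% of all genes were called, 35.4% higher and 43.4% lower.

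Both ligands kept an effect in the presence of JQ-1. Compared with JQ-1 alone, enzalutamide with JQ-1 raised TMPRSS2 by 1.83 ± 0.040 (limma, adjusted p = 5.77e-07), ELK4 by 1.27 ± 0.045 (limma, adjusted p = 5.90e-06) and EHF by 1.07 ± 0.043 (limma, adjusted p = 9.59e-06), and ELF3 was lower with a change of -0.53 ± 0.051 (limma, adjusted p = 8.70e-04). No group overlapped its counterpart for any of these genes, but the two-group test with equal variances kept TMPRSS2 alone and lost ELK4 (0.97, adjusted p = 0.114), EHF (1.18, adjusted p = 0.0878) and ELF3 (-0.45, adjusted p = 0.511). Of 5 members tested 3 were higher and 2 lower, where 14% of all genes were called, 6.09% higher and 7.94% lower, and rescaling moved the higher share of calls from 43.4% to 58.7%. DHT with JQ-1 raised TMPRSS2 by 2.38 ± 0.039 (limma, adjusted p = 1.31e-08), ELK4 by 2.17 ± 0.042 (limma, adjusted p = 2.31e-08) and EHF by 2.83 ± 0.042 (limma, adjusted p = 9.04e-09). ELF3 fell, with a change of -1.37 ± 0.055 (limma, adjusted p = 1.00e-06). Of these 4 members 3 were higher and 1 lower, where 52.5% of all genes were called, 16.7% higher and 35.8% lower, and rescaling moved the higher share from 31.8% to 55.3%.

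**Figure D3:**
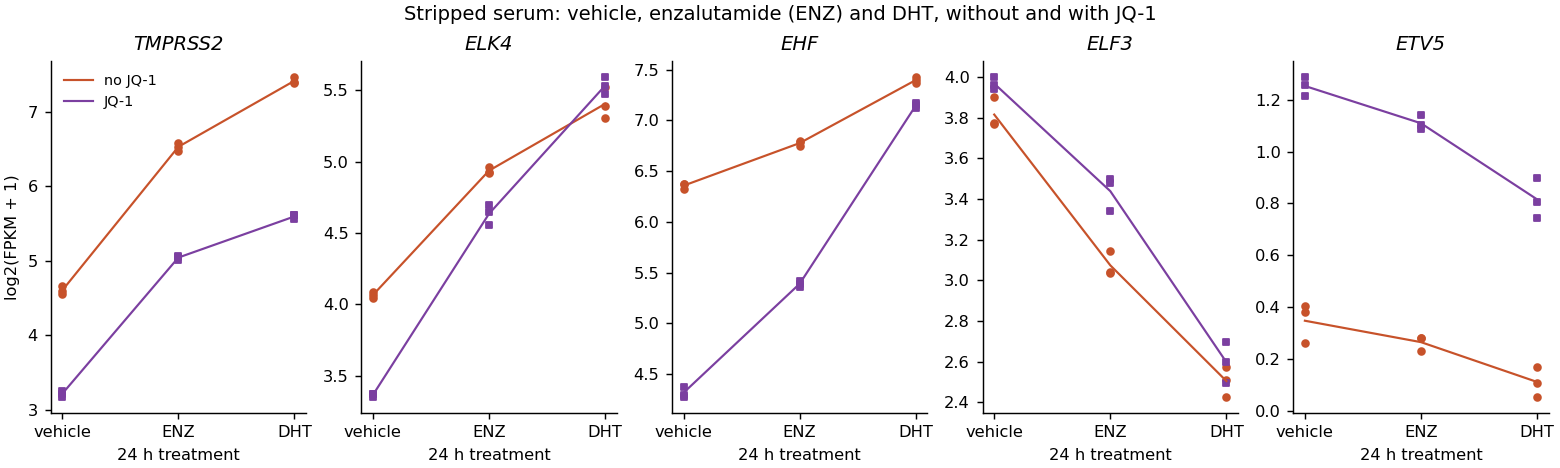
Level of 5 members on the log2(FPKM + 1) scale in MR49F in stripped serum with vehicle, enzalutamide (ENZ) or DHT, without JQ-1 (circles) and with it (squares), 3 libraries a point, lines through the means. The TMPRSS2 lines lie apart at every treatment, the EHF lines close from -2.04 at vehicle to -0.25 at DHT, and ETV5 lies higher with JQ-1 throughout.

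The interaction terms measured how far JQ-1 altered each ligand's effect. For TMPRSS2 the enzalutamide effect with JQ-1 differed from that without it by -0.099 (95% interval -0.23 to 0.035), which did not pass the test, and the DHT effect was smaller, with a term of -0.43 ± 0.058 (limma, adjusted p = 9.99e-05). For EHF the effects were larger with JQ-1, by 0.65 ± 0.053 for enzalutamide (limma, adjusted p = 1.59e-05) and by 1.79 ± 0.052 for DHT (limma, adjusted p = 6.29e-10). For ELK4 they were larger by 0.40 ± 0.055 for enzalutamide (limma, adjusted p = 6.85e-04), a call that was lost on counts (edgeR, 0.23, adjusted p = 0.623), and by 0.83 ± 0.072 for DHT (limma, adjusted p = 4.02e-06). ELF3 did not pass for enzalutamide (0.21, 95% interval 0.044 to 0.38, limma adjusted p = 0.0772) or for DHT (-0.059, 95% interval -0.24 to 0.12). It passed for enzalutamide with rescaled FPKM (limma, adjusted p = 0.0497), without enzalutamide replicate 3 (limma, adjusted p = 0.0496) and without enzalutamide with JQ-1 replicate 1 (limma, adjusted p = 0.0334). For enzalutamide, of the 4 members other than ETV5, 2 had a positive and none a negative interaction. ETV5 passed the filter there only through its JQ-1 libraries. Over all genes 18.5% were called, 7.48% positive and 11.1% negative. For DHT, of the 4 members other than ETV5, 2 were positive and 1 negative, where 47.7% were called, 25% positive and 22.7% negative.

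Among the ETS genes that fuse to TMPRSS2, ETV5 was the member above 1 FPKM, and only with JQ-1. ETV5, a factor of the PEA3 group that is induced by growth factor signalling, was at 0.197, 0.322 and 0.301 FPKM with vehicle in stripped serum and at 1.44, 1.32 and 1.39 FPKM with JQ-1. With enzalutamide it was at 0.172, 0.216 and 0.215 FPKM, and with enzalutamide and JQ-1 at 1.12, 1.15 and 1.204 FPKM. In both pairs the JQ-1 libraries stood above all others, and ETV5 passed the filter of 1 FPKM in 3 libraries only through them, so no test of these differences is given and ETV5 is not among the members counted in these comparisons. With DHT it was at 0.0779, 0.125 and 0.0376 FPKM and with DHT and JQ-1 at 0.864, 0.675 and 0.747 FPKM, groups that did not overlap and were not tested, because no library reached 1 FPKM. The reads behind these values were few. Over the 3 libraries of a group, ETV5 had 3 counts with vehicle and 24 with JQ-1, 2 with enzalutamide and 14 with enzalutamide and JQ-1, and none with DHT and 15 with DHT and JQ-1. edgeR did not test ETV5 in stripped serum.

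With JQ-1 present, the ETV5 levels with DHT lay below those without a ligand, but ETV5 passed the filter there only through the libraries with JQ-1 alone, and no test is given. Against JQ-1 alone, its difference in the presence of enzalutamide, where all 6 libraries exceeded 1 FPKM, was -0.14 ± 0.039 (limma, adjusted p = 0.0484), which was lost when any of the 6 libraries was left out (limma adjusted p-values of 0.0662 to 0.134) with rescaled FPKM (limma, adjusted p = 0.0690) and in the two-group test with equal variances (-0.090, adjusted p = 0.929). The fitted interaction of DHT and JQ-1 for ETV5, -0.20 ± 0.074 (limma, adjusted p = 0.0420), again rested on entry through the JQ-1 libraries, and it turned to 0.27 with a pseudocount of 0.1 in place of 1 (limma, adjusted p = 0.396). It missed the threshold with no filter (limma, adjusted p = 0.0536), rescaled FPKM (limma, adjusted p = 0.0737) and a replicate block (limma, adjusted p = 0.0596), so it gives no direction. Without vehicle replicate 1, DHT replicate 1, DHT replicate 2, DHT with JQ-1 replicate 2 or DHT with JQ-1 replicate 3 its adjusted p by limma was 0.0971, 0.0646, 0.0990, 0.0990 and 0.0742. In V16D cells in full serum ETV5 had 6, 11 and 5 counts with vehicle and 14, 9 and 16 with enzalutamide, overlapping groups with a log2 difference of 0.70 (95% interval -0.065 to 1.46).

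The other members that fuse to TMPRSS2, namely ERG, ETV1 and ETV4, stayed near the floor. ERG had between 1 and 12 counts in the full serum libraries, and in stripped serum a single count over 18 libraries. Its highest FPKM was 0.223, in MR49F vehicle replicate 2 in full serum. ETV1 had 3, 4 and 4 counts in V16D vehicle, 2 in V16D with enzalutamide replicate 1, 1 in MR49F vehicle replicate 1 in full serum and 0 in each of the other 25 libraries, among them all 18 in stripped serum. ETV4 had 5 to 20 counts in full serum and 0 to 7 in stripped serum, with at most 0.318 FPKM. A count of 0 allows up to 3 counts, which is 0.142 to 0.228 CPM (counts scaled to library size) in full serum and 1.65 to 3.05 in stripped serum, so that lower levels were not detectable at this depth. Such limits cover counting error only. ETV4 was tested in MR49F in full serum, where its log2 difference with enzalutamide was 0.21 (95% interval -0.68 to 1.11), and in the interaction with the line (-0.70, 95% interval -1.91 to 0.51), and ERG and ETV1 passed the filter in no comparison.

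Because only a small share of reads in stripped serum fell on genes, the 4 abundant members were followed in both measures. Relative to FPKM, MR49F vehicle libraries in stripped serum held 6.38% as many TMPRSS2 counts as in full serum, 4.203% for ELK4, 4.95% for EHF and 9.57% for ELF3. Over 11157 genes the median was 8.30%, with quartiles of 6.24% and 11.4%, so ELK4 lay at the 4.76th percentile and EHF at the 10.5th. MX1, the interferon-induced gene opposite TMPRSS2, averaged at most 1.40 FPKM in any condition, and mean TMPRSS2 was at least 10.3 times mean MX1 in each of the 10 conditions. In the 8 comparisons of stripped serum groups, all 32 log2 differences had the same sign in FPKM and in counts. The median absolute gap between the measures was 0.11 and the largest 0.35, for EHF with DHT under JQ-1 (2.83 in FPKM and 3.18 in counts).

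**Figure D4:**
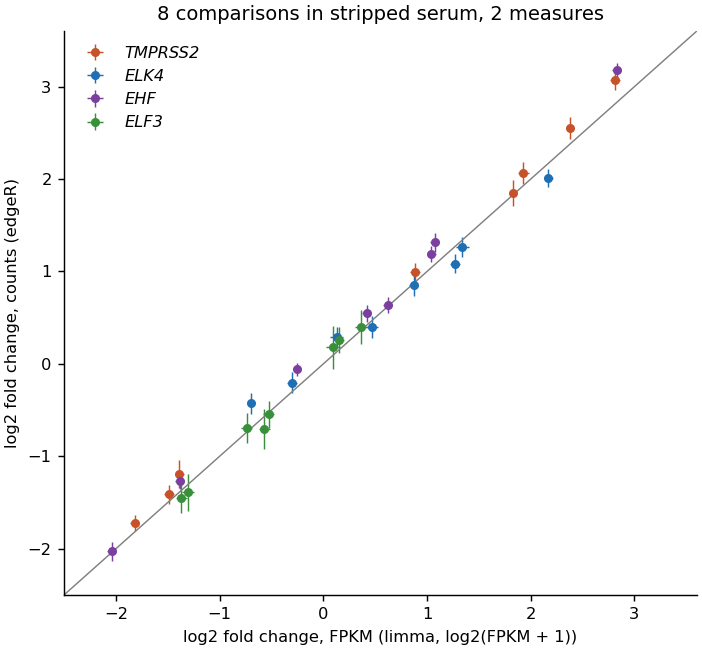
Log2 fold changes of TMPRSS2, ELK4, EHF and ELF3 in the 8 comparisons of stripped serum groups, from FPKM by limma on the x axis and from counts by edgeR on the y axis, with bars of 1 SE and the line of equality. All 32 points lie in the same direction on both axes, and the largest gap is 0.35.

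Of the 21 other ETS genes, 17 were tested in V16D with enzalutamide, and 2 rose and 5 fell (median -0.057, all genes 0.0038), 7 of 17 called beside 37.5% of all genes. SPDEF, a prostate epithelial ETS factor, had the largest change of the called genes above 1 FPKM, from 55.5 to 23.8 FPKM on average, a change of -1.25 ± 0.037 (edgeR, adjusted p = 8.47e-157). In MR49F in full serum, where 8.48% of all genes were called, 1 of 16 fell, SPDEF, from 85.0 to 37.6 FPKM, a change of -1.22 ± 0.049 (edgeR, adjusted p = 8.85e-07). The SPDEF interaction with the line was 0.023 ± 0.060 and did not pass the test (edgeR, adjusted p = 0.891). In stripped serum 4 of 13 rose and 2 fell with enzalutamide (median 0.037, all genes -0.013), and 4 of 14 rose and 5 fell with DHT (median 0.097, all genes -0.083), beside 38.4% and 71.6% of all genes called. SPDEF went from 32.8 FPKM with vehicle to 37.4 with enzalutamide (0.18 ± 0.060, limma, adjusted p = 0.0429) and to 124 with DHT (1.89 ± 0.047, limma, adjusted p = 1.87e-08). JQ-1 alone lowered 8 and raised 2 of 12 (median -0.31, all genes -0.060), 10 of 12 called where 74.7% of all genes were, with SPDEF at 3.83 FPKM (-2.80 ± 0.039, limma, adjusted p = 8.13e-09).

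Besides TMPRSS2, 9 other genes known as 5′ partners of ETS fusions were followed. In V16D with enzalutamide 7 of 9 fell and none rose (median -0.55, all genes 0.0038), where 19.3% of all genes fell, led by SLC45A3, KLK2 and NDRG1. In MR49F in full serum 4 fell and none rose (median -0.18, all genes 0.0095), where 4.62% of all genes fell, and 6 had a positive interaction with the line, as had 4.19% of all genes. In stripped serum 5 rose and none fell with enzalutamide (median 0.38, all genes -0.013), and 8 rose and none fell with DHT (median 0.88, all genes -0.083), beside 19.1% and 28.6% of all genes that rose. SLC45A3, a prostate solute carrier, rose from 9.97 to 89.5 FPKM with enzalutamide, by 3.04 ± 0.064 (limma, adjusted p = 6.62e-08), and to 178 FPKM with DHT. NDRG1, a stress-responsive gene, was at 19.96 FPKM with vehicle, 19.1 with enzalutamide and 191 with DHT (3.20 ± 0.045 for DHT, limma, adjusted p = 1.51e-09). With JQ-1 added to DHT 2 of the 9 rose and 6 fell (median -0.39, all genes -0.054), 8 of 9 called where 78.8% of all genes were. KLK2, a kallikrein protease, fell from 219 to 11.5 FPKM there (-4.13 ± 0.052, limma, adjusted p = 5.73e-09), whereas SLC45A3 rose from 178 to 239 FPKM (0.42 ± 0.037, limma, adjusted p = 1.57e-05).

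Of 19 other transmembrane serine proteases and their inhibitors, 7 were tested in V16D with enzalutamide, and 1 rose and 1 fell, beside 37.5% of all genes called. In stripped serum 2 of 5 fell and none rose with enzalutamide (median -0.15, all genes -0.013), and 4 of 5 fell with DHT (median -0.29, all genes -0.083), where 19.3% and 43% of all genes fell. The hepatocyte growth factor activator inhibitor SPINT1 was at 73.0 FPKM with vehicle, 62.2 with enzalutamide and 52.6 with DHT, and fell with both, with changes of -0.23 ± 0.045 and -0.47 ± 0.039 (limma, adjusted p = 0.00480 and 1.52e-05). HPN, which encodes the protease hepsin, fell with JQ-1 from 33.3 to 16.02 FPKM (-1.01 ± 0.048, limma, adjusted p = 1.05e-06). Among 10 regulators of ETS proteins 2 of 9 fell and none rose with enzalutamide in stripped serum (median -0.10, all genes -0.013), and 2 rose and 5 fell with DHT (median -0.23, all genes -0.083). That is 2 of 9 and 7 of 9 called, beside 38.4% and 71.6% of all genes. SPRY4, an inhibitor of growth factor signalling, was at 2.24 FPKM with vehicle, 1.37 with enzalutamide, 0.590 with DHT and 0.220 with JQ-1, and it fell in all 3 comparisons with vehicle, with changes of -0.45 ± 0.058, -1.03 ± 0.056 and -1.41 ± 0.054 (limma, adjusted p = 5.75e-04, 1.29e-06 and 3.92e-07).

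Over the 10 condition means, on the log2(FPKM + 1) scale, the genes with the pattern most like that of TMPRSS2 among 10344 genes were HOMER2 (Pearson r = 0.973), STARD3NL (0.950) and MALT1 (0.947). For ELK4 they were C1orf116 (0.956), FBXW11 (0.949) and RAB4A (0.942), and for EHF ZNF385B (0.960), C12orf65 (0.944) and AMMECR1 (0.942). For ELF3 they were ZNF217 (0.955), ANKRD16 (0.950) and PITX1 (0.948), and for ETV5 among 10345 genes HIST2H3C (0.991), RAB11FIP3 (0.989) and GZF1 (0.988). Between members, r was 0.740 for TMPRSS2 with ELK4, 0.782 for TMPRSS2 with EHF and -0.721 for TMPRSS2 with ELF3. These values describe 10 means, which share cell lines, sera and treatments and were not scaled between libraries.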

How the data were processed

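Strand-specific poly(A) libraries were sequenced as single-end reads, and the authors aligned them to hg19 (GRCh37) with TopHat2 2.0.9. The deposited counts are HTSeq reads per gene symbol, not normalized, and the strand setting was not given in the sources used here. The authors' FPKM come from Cufflinks 2.1.1 per RefSeq transcript and were summed to genes here. Members and gene lists were chosen with earlier results of these data known. In full serum, counts were tested with edgeR 4.0.16 (quasi-likelihood test, TMM, filterByExpr) in R 4.3.3. In stripped serum, limma 3.58.1 was run on log2(FPKM + 1), keeping genes that reached 1 FPKM in 3 or more libraries of the fit. Only the groups compared entered each fit. Rows of HTSeq that name no gene were left out. SE is the log2 change over the test statistic. Depth ranged from 13170504 to 21154962 counted reads in full serum and from 982130 to 1813262 in stripped serum.

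The 8 members are named in every comparison. From each further list at most 3 genes per comparison could be named, those past the threshold with the largest change and at least 1 FPKM on average in the higher group. MX1 is named because it lies opposite TMPRSS2. The 3 genes most like each member were taken by Pearson r among genes of at least 5 FPKM in a condition mean. SPDEF and NDRG1 with enzalutamide in stripped serum, SPDEF in the interaction with the line and SLC45A3 with JQ-1 added to DHT lie outside this rule and were chosen after their values were seen. The alternatives were other filters, size factors of DESeq2 1.42.0, its Wald test, the other measure, a pseudocount of 0.1 and FPKM rescaled by median ratios. Further ones were a two-group test with equal variances, all groups of a serum in 1 fit, a replicate block and leaving out each replicate. The two-group test used FPKM on the log2 scale in full serum and variance-stabilized counts in stripped serum, with the 50% least variable genes left out. The study names a t-test for its RNA-seq but gives neither its variance setting nor the cutoff of its variance filter. The fits were tested on simulated data with a set noise and changes added only to genes well above the floor, which does not cover genes near it. Some sequences and markers are not reported here. Coordinates and upstream windows are from GENCODE release 44 on GRCh37, matched by symbol. Replicates of a group differed by more than sampling noise (lowest chi-square per degree of freedom 1.13). MR49F vehicle replicate 1 in full serum stood apart, at 9.87 and 11.6 against replicates 2 and 3, where no other pair exceeded 2.82. It enters every MR49F full serum comparison, including the interactions with line and with serum. Same-numbered replicates did not deviate together (mean r of 1.1e-04 in full and 0.0052 in stripped serum). Figures were drawn with Python 3.11.15.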

Additional observations from a re-analysis of the deposited data

Results flagged for a closer look

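Most members below had effects that differed between groups by the test of the difference itself, the interaction term on a log2 scale. The enzalutamide effect differed between MR49F and V16D in full serum (edgeR) by 2.28 for TMPRSS2, 0.96 for ELK4, -0.61 for ELF3 and 0.52 for EHF on the log2 scale. The enzalutamide effect in MR49F differed between stripped and full serum (limma) by 2.07 for TMPRSS2, 0.86 for ELK4, -1.04 for ELF3 and 0.63 for EHF. The enzalutamide effect with JQ-1 differed from that without it (limma) by 0.65 for EHF and by 0.40 for ELK4, although on counts the ELK4 call was lost (edgeR, 0.23, adjusted p = 0.623). The DHT effect with JQ-1 differed from that without it (limma) by -0.43 for TMPRSS2, 0.83 for ELK4 and 1.79 for EHF. The term fitted for ETV5 was -0.20 (limma, adjusted p = 0.0420), but ETV5 passed the filter only through its JQ-1 libraries, and the term turned to 0.27 (limma, adjusted p = 0.396) with a pseudocount of 0.1 and missed the threshold with no filter, with rescaled FPKM, with a replicate block and without each of 5 libraries.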

How the results depend on the processing

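The number of members called, here with ETV5 counted wherever it passed the filter, stayed within 1.5 times the reported number in 202 of 217 alternatives, and member log2 changes kept their direction and side of the threshold in 950 of 1013, with 1 reversal (ETV5, DHT by JQ-1, 0.27 with a pseudocount of 0.1). The equal-variance two-group test called fewer members in MR49F with enzalutamide in full serum (1), with enzalutamide in stripped serum (1), with DHT against enzalutamide (2), with JQ-1 alone (2), with JQ-1 added to enzalutamide (2) and with enzalutamide under JQ-1 (1). edgeR on counts called 3 with JQ-1 alone, 2 with JQ-1 added to enzalutamide and 1 in the enzalutamide by JQ-1 interaction. With JQ-1 added to DHT, rescaled FPKM and all groups in 1 fit each called 4. Leaving out 1 replicate called 1 to 3 members in MR49F with enzalutamide in full serum and 3 to 5 with JQ-1 alone. The cause was not tested.

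Over all genes, the calls in V16D with enzalutamide went from 5276 to 3489 with DESeq2 and 3065 with the two-group test. In MR49F in full serum they went from 1181 to 566 with limma on FPKM, 389 with the two-group test, 2558 with all groups in 1 fit and 406 to 2533 with 1 replicate left out, the highest without vehicle replicate 1, and in the interaction with the line they were 742 to 1579 with 1 replicate left out in place of 1006. In stripped serum edgeR on counts and the two-group test gave 808 and 149 in place of 4673 with enzalutamide, 4122 and 2378 in place of 8725 with DHT, 2122 and 978 in place of 6823 for DHT against enzalutamide, 5284 and 3382 in place of 9110 with JQ-1, 4902 and 3074 in place of 9161 with JQ-1 added to enzalutamide, 5891 and 3981 in place of 9342 with JQ-1 added to DHT, 482 and 55 in place of 1648 with enzalutamide under JQ-1, and 2400 and 1012 in place of 6151 with DHT under JQ-1. With 1 replicate left out, enzalutamide under JQ-1 gave 705 to 1258 genes. edgeR on counts gave 104 in place of 2310, 1428 in place of 5942 and 1613 in place of 4415 for the enzalutamide by JQ-1, DHT by JQ-1 and serum interactions.

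A fit with a replicate block, which the check of the deviations did not call for, changed 3 member calls: ELK4 with JQ-1 added to DHT passed (0.13, limma, adjusted p = 0.0279), and ETV5 did not pass with enzalutamide under JQ-1 (-0.14, limma, adjusted p = 0.0854) or in the DHT by JQ-1 interaction (-0.20, limma, adjusted p = 0.0596). Low counts in stripped serum limit ERG, ETV1, ETV4 and ETV5 most.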

Other observations

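Of the 9 other 5′ fusion partners, 2 had a positive and 4 a negative interaction of DHT and JQ-1 (median -0.048, all genes 0.014), beside 47.7% of all genes called. In MR49F cells in stripped serum, ACSL3, which activates fatty acids, was at 29.1 FPKM with vehicle, 308 with DHT and 325 with DHT and JQ-1, and the interaction of DHT and JQ-1 was -0.85 ± 0.053 (limma, adjusted p = 3.10e-07), and JQ-1 alone raised it to 55.9 FPKM (0.92 ± 0.044, limma, adjusted p = 1.12e-06). The ETS factor SPDEF was at 3.83 FPKM with JQ-1, 3.83 with enzalutamide and JQ-1 and 56.4 with DHT and JQ-1, and its interaction of DHT and JQ-1 was 1.69 ± 0.064 (limma, adjusted p = 4.40e-09).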
